A study of Mus musculus with 8 samples.

Results

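The dual specificity MAP kinase phosphatases described here were 8 genes, Dusp1, Dusp2, Dusp4, Dusp5, Dusp6, Dusp7, Dusp10 and Dusp16, taken by symbol from a table of 27179 genes. Each symbol matched 1 gene, and all 8 passed the filter on low values. They were measured in LTi (lymphoid tissue inducer) cells, innate lymphocytes that start the formation of lymphoid organs. Cells came by sorting from Peyer's patches (PP) of mice, the lymphoid follicles of the gut wall, and from the small intestinal lamina propria (LP), the connective tissue under the epithelium. Mice on C57BL/6 were either Tcf7+/+ (wild-type) or Tcf7fl/fl with a Cre transgene, in which Cre is meant to delete loxP-flanked Tcf7 in cells that express or once expressed Cre (the knockout label). Tcf7 encodes the transcription factor TCF-1. Each of the 4 groups, wild-type PP, knockout-label PP, wild-type LP and knockout-label LP, held 2 Smart-seq2 libraries, so n = 2 for each group. The sources used here give neither the ages nor the number of mice per library, nor whether the wild-type mice carried Cre. Nothing says that the 2 libraries of a group came from separate mice, and p-values then measure only the spread between these libraries, which may be technical.

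MAP kinases (ERK, JNK and p38) carry signals from receptors and stress to the nucleus, and they are active only when a threonine and a tyrosine in the activation loop are both phosphorylated. Dual specificity MAP kinase phosphatases remove both phosphates, and many are themselves transcribed in response to MAP kinase activity, which makes them feedback brakes. Dusp1, Dusp2, Dusp4 and Dusp5 encode nuclear, inducible enzymes, Dusp6 and Dusp7 encode cytoplasmic enzymes directed at ERK, and Dusp10 and Dusp16 encode enzymes directed mainly at JNK and p38.

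Promoter sequence is shown for Dusp5 and Dusp1, the members with the highest transcript levels, which differed in how they varied between tissues. RefSeq promoters on GRCm38.p6 were found for 7 of the 8 members, all except Dusp4. The 210 bases shown run from -250 to -41 relative to the annotated start (Dusp5, chr19:53528895-53529104, plus strand; Dusp1, chr17:26508513-26508722, minus strand). Capitals mark matches to a CArG box (the serum response factor motif), to the cAMP response element TGACGTCA or to its core TGACG.
Dusp5: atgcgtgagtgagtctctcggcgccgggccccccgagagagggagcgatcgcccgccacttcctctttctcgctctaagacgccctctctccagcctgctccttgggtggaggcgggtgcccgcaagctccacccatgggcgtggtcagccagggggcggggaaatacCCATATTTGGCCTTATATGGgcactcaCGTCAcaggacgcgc
Dusp1: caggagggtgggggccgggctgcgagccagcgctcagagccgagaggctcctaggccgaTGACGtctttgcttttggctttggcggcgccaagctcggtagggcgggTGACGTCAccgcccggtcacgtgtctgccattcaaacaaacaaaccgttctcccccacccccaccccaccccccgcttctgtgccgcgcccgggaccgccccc
The Dusp5 stretch held a pair of adjacent CArG boxes beginning at -82 and -72 and a reverse-strand core at -55. Dusp1 held the full cAMP response element at -143, which contains a core on each strand, and another core at -191. Over both strands of the 250 bases before each start, a CArG box was found in 1.47% of all 32851 promoters, the full element in 1.55% and the core in 17.8%. Of the 7 members, 1 had a CArG box, 1 the full element and 3 the core, the last being Dusp1, Dusp5 and Dusp16. The AP-1 site TGANTCA, the NF-kB site and the TCF/LEF cores CTTTGAT and CTTTGAA had no match in any of the 7, against 6.75%, 3.9%, 3.21% and 4.46% of all promoters. A match is a run of letters in this window and not a shown binding site, and no match says only that the letters are not in this window.

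The libraries held an estimated 28.7 to 33.2 M assigned reads each, and 1 read corresponded to about 0.00428 RPKM (reads per kilobase of transcript, scaled to library size) for Dusp16, the longest, and 0.0167 for Dusp2, the shortest. The LTi markers Il7r and Ccr6 were present in every library, from 206 and 89.3 RPKM upwards, and Ncr1, which encodes the excluded NKp46, was at 0 in all 8. Some markers of ILC1, NK cells and ILC2 were present throughout a tissue, with Gata3 at 24.2 to 119 RPKM in all 8 libraries and Klrk1 at 58.3 to 116 in all 4 LP libraries. Others were above 1 RPKM in a few libraries only, Klrb1c at 32.8 RPKM in wild-type PP replicate 1 and 8.42 in knockout-label PP replicate 2, and Klrg1 at 10.7 in wild-type LP replicate 1. Tcf7 stood at 164 ± 111 and 346 ± 13.01 RPKM in wild-type and knockout-label PP, and at 238 ± 12.3 and 226 ± 15.5 in LP (SD). Its log2 fold change was 1.26 ± 0.48 (SE) in PP and -0.07 ± 0.48 in LP, with limma adjusted p of 0.365 and 1. The transcript was thus not shown to be lower under the knockout label, and a whole-gene value does not show whether the floxed part was deleted. Genotype below is the label only.

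Dusp5 and Dusp1 made up most of the transcript of the 8 genes, and Dusp5 carried the difference between tissues. The 8 genes summed to 485 to 781 RPKM in the 4 PP libraries and to 1699.9 to 2389 in the 4 LP libraries. Dusp1 and Dusp5 together took 83.1% to 97.3% of that sum in every library. Dusp1 was the highest member in each PP library and Dusp5 in each LP library. The ratio of Dusp5 to Dusp1, which does not depend on how libraries were scaled to each other, was 0.00878, 0.133, 0.125 and 0.212 in PP and 2.31, 1.89, 2.08 and 1.72 in LP.

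**Figure D1:**
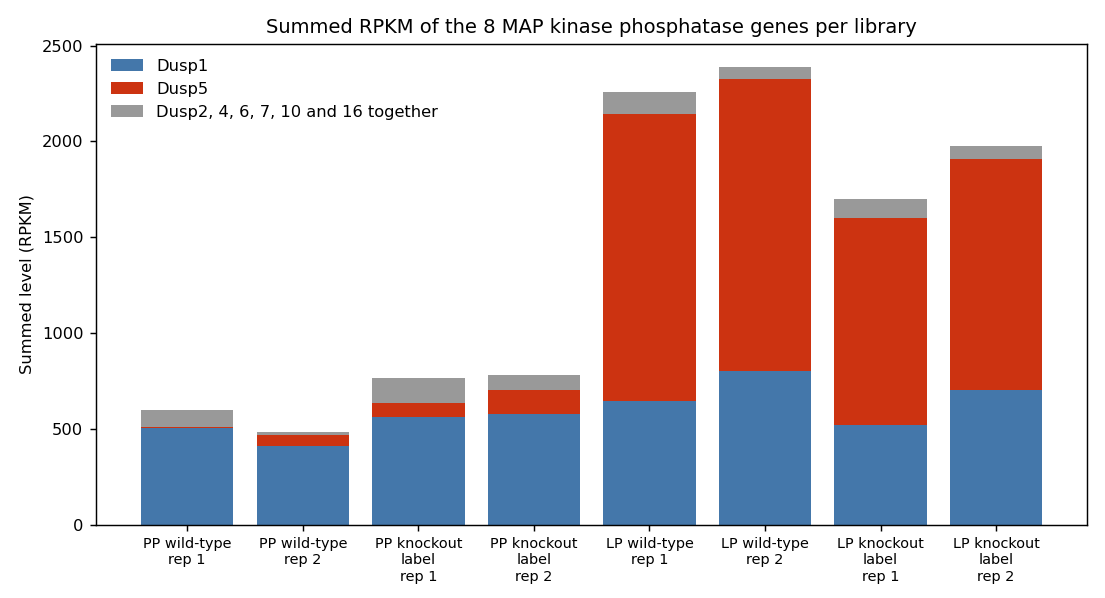
Stacked bars give the summed level in RPKM of Dusp1, Dusp5 and the other 6 genes in each of the 8 libraries. Dusp1 is similar in height throughout, and Dusp5 is a thin layer in PP and the largest in all 4 LP libraries.

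Dusp5 (Entrez Gene 240672, chromosome 19, 53529145 to 53541809 on GRCm38) encodes a nuclear phosphatase specific for ERK. It stood at 4.42 and 54.6 RPKM in wild-type PP and at 70.5 and 123 in knockout-label PP. In LP it stood at 1496 and 1520.1 RPKM in wild-type and at 1081 and 1207 under the knockout label. All 4 LP libraries lay above all 4 PP libraries, the lowest LP value being 8.82 times the highest PP value. The mean was 1326 ± 217 RPKM in LP and 63.1 ± 48.7 in PP (SD, 4 libraries each), a ratio of 21.03. On the log2(RPKM + 1) scale the average tissue effect was 5.02 ± 0.73 (SE), with a limma adjusted p of 0.00363 (Benjamini-Hochberg over 10541 genes). Dusp5 was the only 1 of the 8 members to pass, where 4.33% of all genes tested passed in either direction, 2.3% as higher in LP and 2.03% as lower. It ranked between 44 and 60 among all genes by RPKM in the LP libraries and between 786 and 5727 in PP.

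Within wild-type libraries alone, Dusp5 rose in LP by 6.44 ± 0.95 on the log2 scale (SE, limma adjusted p = 0.0271), where 1.34% of genes passed as higher. Under the knockout label the difference was 3.60 ± 0.95 and did not pass (limma adjusted p = 0.134). The 2 differences were not shown to differ, since the interaction of -2.84 ± 1.35 had a limma adjusted p of 0.635. The wild-type PP replicates lay far apart in Dusp5, and leaving out replicate 1 or 2 gave 4.76 or 8.12 for the wild-type difference, both passing. That call was lost without any 1 of the other 6 libraries (limma adjusted p of 0.069 to 0.206). The average effect passed without each of the 8 libraries in turn.

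Markers of other cells moved between tissues with Dusp5. The summed B and plasma cell markers were 5186 to 12238 RPKM in PP and 15763 to 25494 in LP, with 1 of 11 at 0 in all libraries. T cell markers went the other way, at 664 to 1044 and 249 to 442 RPKM, with none of 12 at 0 throughout. Trbc2, Cd4 and Trbc1 gave most of that sum in both tissues. Cd3e, Cd3d, Cd3g and Trac each fell below 1 RPKM in some libraries of both tissues, so the sum is not a measure of T cell number. Of the 10 T cell markers tested, 9 had an average tissue effect below 0 and 1 above. Epithelial markers overlapped, at 149 to 623 and 123 to 412 RPKM, with none of 11 at 0. Stromal and endothelial markers summed to 78.5 to 205 RPKM in PP and 28.1 to 64.5 in LP, with 5 of 9 at 0, and myeloid markers to 0.767 to 65.3 and 0.305 to 99.9, with 2 of 10 at 0. ILC1 and NK markers were at 9.93 to 33.7 RPKM in PP and 127 to 186 in LP, with 2 of 8 at 0, Klrk1 and Gzmb giving most of the LP sum. ILC2 markers summed to 51.9 to 120.04 RPKM in PP and 155 to 240.5 in LP, with 2 of 7 at 0. The higher sum in LP came mostly from Areg, at 0.373 to 0.582 RPKM in PP and 90.9 to 204 in LP, while Gata3, which encodes the lineage factor GATA3, stood at 44.7 to 119 in PP and 24.2 to 43.7 in LP. Their part in the Dusp5 difference was not tested. In sorted bulk samples, fewer cells of a type and less RNA per cell cannot be told apart. In GENCODE M21, the antisense gene AC137853.2 (chromosome 19, 53528609 to 53529655, minus strand) overlaps the 5′ end of Dusp5, and reads of the pair cannot be told apart without a stated strand setting.

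Dusp1 (Entrez Gene 19252, chromosome 17, 26505591 to 26508472) encodes MKP-1, a nuclear phosphatase of JNK, p38 and ERK and a classic immediate early gene. It stood at 503 and 412 RPKM in wild-type PP, 565 and 579.9 in knockout-label PP, 647 and 804 in wild-type LP, with 519.6 and 701 in knockout-label LP. This was the steadiest of the 8 genes, and PP and LP overlapped. The mean was 668 ± 118 RPKM in LP and 515 ± 76.2 in PP (SD, 4 libraries each). The average tissue effect was 0.37 ± 0.21 on the log2 scale (SE, limma adjusted p = 0.364). In wild-type libraries the groups did not overlap, with a difference of 0.66 ± 0.24 that did not pass (limma adjusted p = 0.225).

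Dusp4 (Entrez Gene 319520, chromosome 8, 34807610 to 34819894) encodes MKP-2, a nuclear phosphatase of ERK and JNK. It stood at 15.4 and 0.102 RPKM in wild-type PP, 8.40 and 15.1 in knockout-label PP, 22.1 and 45.3 in wild-type LP, with 39.9 and 33.6 in knockout-label LP. All 4 LP libraries lay above all 4 PP libraries, as was so for 6.54% of genes tested, and Dusp4 and Dusp5 were the 2 members with this order. The average tissue effect was 2.28 ± 0.92 (SE) and did not pass (limma adjusted p = 0.207). It was 1.37 without wild-type PP replicate 2, the library with almost no Dusp4.

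Dusp2 (Entrez Gene 13537, chromosome 2, 127336159 to 127338377) encodes PAC-1, a nuclear phosphatase known from activated lymphocytes. It stood at 1.71 and 0.0974 RPKM in wild-type PP and at 49.2 and 21.6 in knockout-label PP. In LP it was near the floor, at 0.145 and 0.126 RPKM in wild-type and 0.0882 and 0.0629 under the knockout label, or about 4 to 8 reads a library. Only the knockout-label PP libraries thus held more than 2 RPKM. The difference between genotypes in PP was 4.29 ± 0.96 on the log2 scale (SE, limma adjusted p = 0.134). The difference between tissues under the knockout label was -4.97 ± 0.96 (limma adjusted p = 0.0549), and neither passed. Cd79b, a B cell receptor gene, was among the 3 genes whose pattern was most like that of Dusp2 (Pearson r = 0.99 over 8 libraries). It stood at 59.4 and 49.3 RPKM in wild-type PP, 266 and 197 in knockout-label PP and 32.4 to 44.2 in LP. The share of the immunoglobulin genes in the summed RPKM went the other way. It was 2.82% and 2.81% in knockout-label PP and 6.01% and 6.38% in wild-type PP. Igkc stood at 11411 and 11308 RPKM in wild-type PP and at 4748 and 4368 in knockout-label PP. Iglc2, another immunoglobulin gene, was instead higher under the knockout label in PP (4.86 ± 0.62, SE, limma adjusted p = 0.0374). It stood at 0.405 and 1.78 RPKM in wild-type PP and 72.1 and 44.2 in knockout-label PP, but at 111 to 140 in LP. Whether the Dusp2 transcript came from B cells was not tested.

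**Figure D2:**
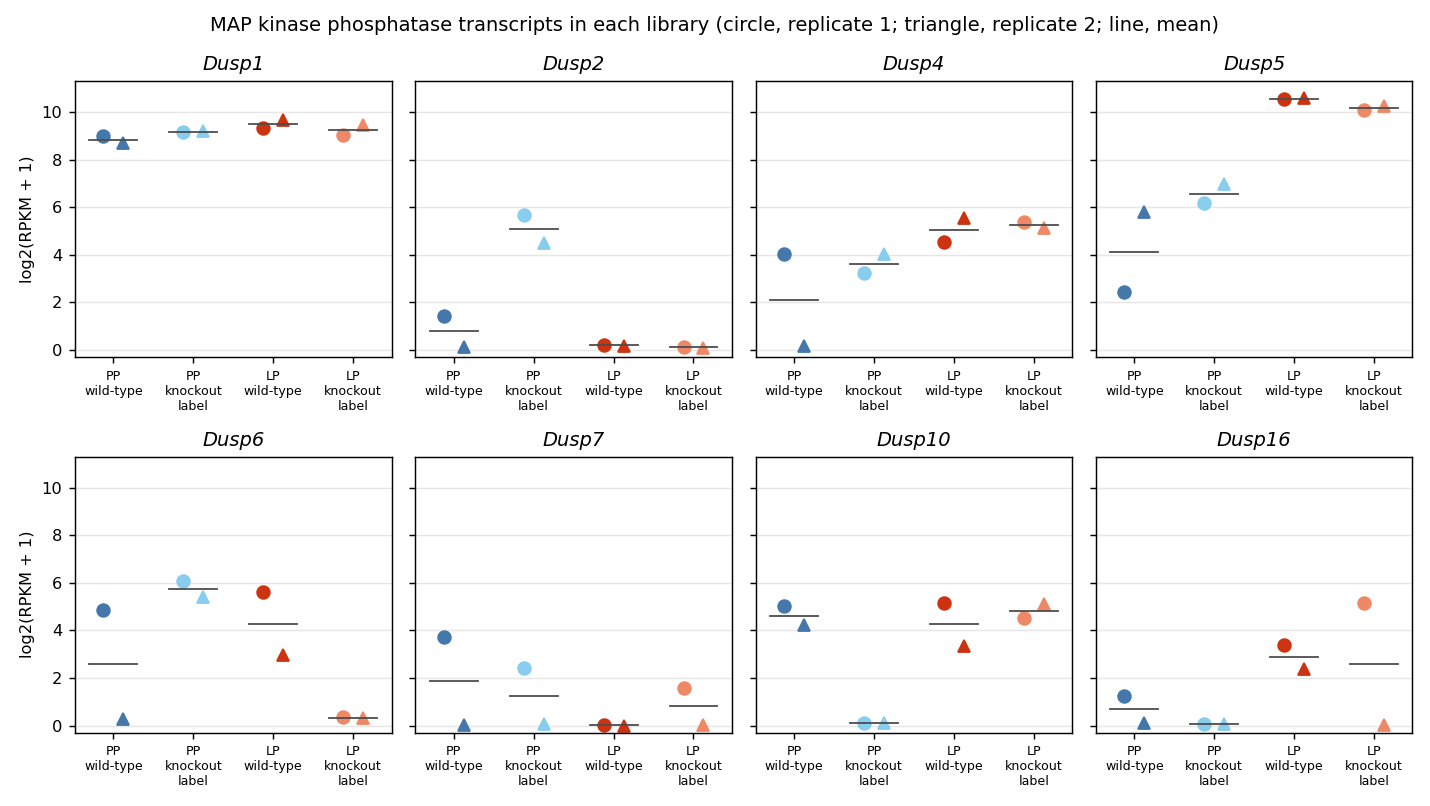
Each panel plots 1 gene as log2(RPKM + 1) in the 2 libraries of each group, with a line at the group mean. Dusp1 is level, Dusp5 is high in all 4 LP libraries, Dusp2 is high in knockout-label PP only, and Dusp10 is near 0 in that group only.

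Neither Dusp6 nor Dusp7, the cytoplasmic ERK phosphatases, passed in any comparison, and replicates of a group lay far apart for both. Dusp6 (Entrez Gene 67603, chromosome 10, 99263231 to 99267489), which encodes MKP-3, stood at 28.3 and 0.209 RPKM in wild-type PP and at 66.8 and 41.7 in knockout-label PP. In LP it stood at 47.6 and 6.71 RPKM in wild-type and at 0.28 and 0.246 under the knockout label. The knockout-label libraries thus lay above both wild-type libraries in PP and below both in LP. The tissue difference under the knockout label was -5.41 ± 1.68 on the log2 scale (SE, limma adjusted p = 0.193), and the interaction was -7.11 ± 2.37 (limma adjusted p = 0.424). Neither passed. The average tissue effect was -1.86 ± 1.58 (limma adjusted p = 0.572).

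Dusp7 (Entrez Gene 235584, chromosome 9, 106368560 to 106375724), which encodes MKP-X, was the lowest of the 8 genes on average. It stood at 12.2 and 0.00707 RPKM in wild-type PP, 4.39 and 0.0465 in knockout-label PP, 0.0243 and 0 in wild-type LP, with 2.02 and 0.0159 in knockout-label LP. It exceeded 1 RPKM in 3 libraries, each from a different group. The average tissue effect was -1.15 ± 0.98 (SE, limma adjusted p = 0.573).

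Dusp10 and Dusp16 encode MKP-5 and MKP-7, the phosphatases directed mainly at stress-activated kinases. Dusp10 (Entrez Gene 63953, chromosome 1, 184034381 to 184075636) stood at 31.4 and 17.5 RPKM in wild-type PP and at 0.0859 and 0.0734, about 7 to 8 reads, in knockout-label PP. In LP it stood at 34.9 and 9.29 RPKM in wild-type and at 21.9 and 33.1 under the knockout label. It was therefore near the floor in both libraries of 1 group and at 9.29 RPKM or more in the other 6 libraries. The difference between genotypes in PP was -4.50 ± 1.01 on the log2 scale (SE, limma adjusted p = 0.134), the difference between tissues under the knockout label 4.69 ± 1.01 (limma adjusted p = 0.0739) and the interaction 5.04 ± 1.42 (limma adjusted p = 0.345). None passed. The average tissue effect was 2.17 ± 1.11 (limma adjusted p = 0.323).

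Dusp16 (Entrez Gene 70686, chromosome 6, 134715468 to 134807063) stood at 1.36 and 0.0838 RPKM in wild-type PP, 0.0507 and 0.0536 in knockout-label PP, 9.46 and 4.26 in wild-type LP, with 34.6 and 0.0299 in knockout-label LP. The 3 highest values were all from LP, and knockout-label LP replicate 2 held about 7 reads. The average tissue effect was 2.37 ± 1.13 (SE, limma adjusted p = 0.284). The antisense gene Gm36328 overlaps Dusp16 in GENCODE M21.

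Across the 8 genes, 5 had an average tissue effect above 0 and 3 below, with a median of 1.27 beside -0.10 for all 10541 genes, of which 47% were above 0. In wild-type libraries 4 members were higher in LP with no overlap (Dusp1, Dusp4, Dusp5 and Dusp16), beside 26% of genes, and none was lower, beside 21.4%. Under the knockout label 3 were higher (Dusp4, Dusp5 and Dusp10), beside 17.5%, and 2 were lower (Dusp2 and Dusp6), beside 28.1%. None passed under the knockout label by limma, beside 2% of genes, and 4 had an unadjusted p under 0.05, beside 14.7%.

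**Figure D3:**
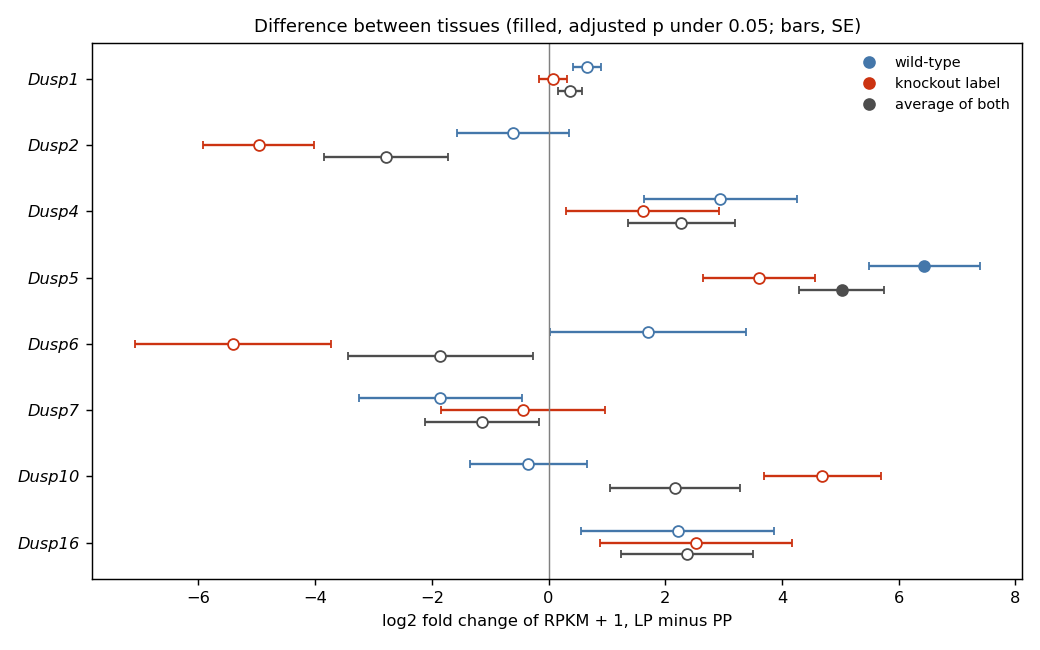
Points give the LP minus PP log2 fold change of each gene with its SE, for wild-type, for the knockout label and for the average from the additive fit. The 2 filled points, both of Dusp5, passed at an adjusted p under 0.05.

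Between the genotype labels, none of the 8 genes passed in PP, where 0.36% of genes did, or in LP, where 0.0285% did. By unadjusted p under 0.05 there were 3 members in PP (Dusp2, Dusp5 and Dusp10), beside 11.4% of genes, and 0 in LP, beside 5.27%. In PP the knockout-label libraries lay above the wild-type for Dusp1, Dusp2, Dusp5 and Dusp6, beside 22.7% of genes, and below for Dusp10 and Dusp16, beside 14.8%. In LP they lay below for Dusp2, Dusp5 and Dusp6, beside 20.3% of genes, and above for none, beside 15.3%. Dusp2, Dusp5 and Dusp6 were thus higher under the knockout label in PP and lower in LP, an order found in 4.27% of all genes tested, and 6.34% had opposite orders in either direction. The difference for Dusp5 in PP was 2.44 ± 0.95 on the log2 scale (SE, limma adjusted p = 0.386). Leaving out wild-type PP replicate 1 gave 0.76, and leaving out replicate 2 gave 4.12, which passed (limma adjusted p = 0.0303). Mitochondrial transcripts were 13.4% and 13.6% of all RPKM in knockout-label PP and 3.06% to 5.06% in the other 6 libraries. Epithelial markers summed to 169 and 149 RPKM in wild-type PP and to 528 and 623 in knockout-label PP. Wild-type PP had 6411 and 6365 genes reaching 1 RPKM, against 8103 and 8039 for knockout-label PP. Across genes, the wild-type PP replicates correlated at 0.577 with each other and at 0.583 to 0.596 with the knockout-label PP libraries. The part of these in the PP differences was not tested. The average genotype effects ran from -1.98 for Dusp10 to 2.10 for Dusp2, with a median of 0.06 beside 0.09 for all genes, and none passed by limma, beside 0.00949% of genes, or had an unadjusted p under 0.05, beside 6.81%.

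**Figure D4:**
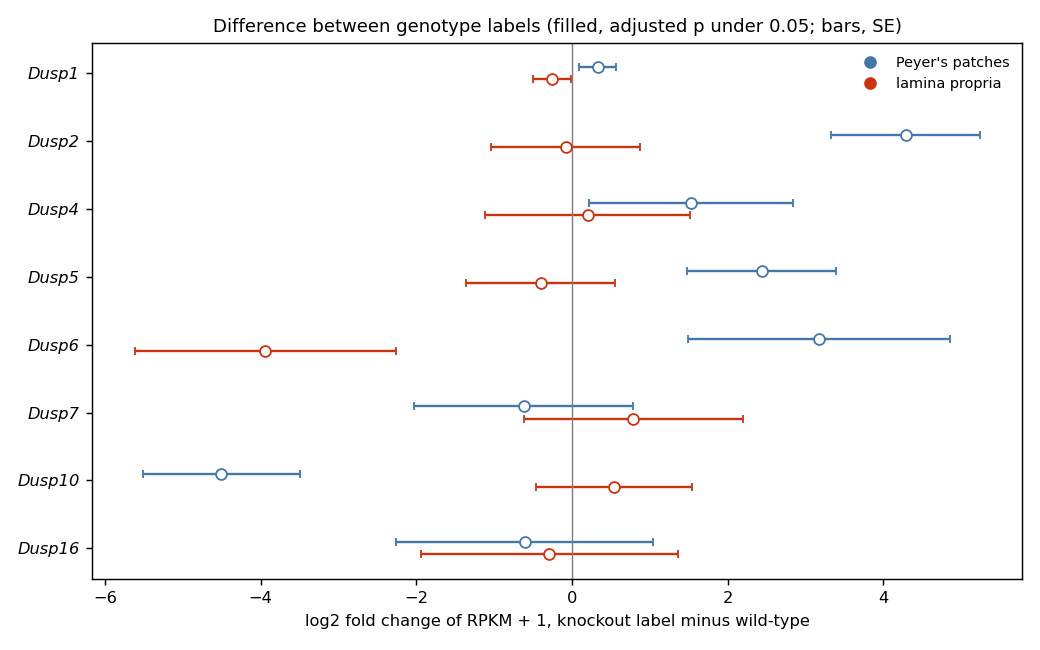
Points give the knockout-label minus wild-type log2 fold change of each gene with its SE, in PP and in LP. All points are open, since no gene passed at an adjusted p under 0.05. Those of Dusp1, Dusp2, Dusp5 and Dusp6 lie right of 0 in PP and left of 0 in LP.

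Values of the 8 genes were either near the floor or at 1 RPKM and above. Of the 64 values, 20 were under 0.3 RPKM, 44 were at 1 RPKM or more and 0 lay between. The lower limit was chosen after the values were seen. Over all genes tested, 22606 of 84328 values were under 0.3 RPKM, 58707 were at 1 RPKM or more and 3015 lay between. Values between were thus few among genes at large too. Among the 32 pairs of replicates, 1 library was at 1 RPKM or more and the other below it in 8, or 25%, beside 28.3% over all genes tested. The low library of each such pair still held 1 to 22 reads by estimate. Whether these splits reflect the level of the transcript or its detection was not tested. Their share is no higher than that of genes at large. Wild-type PP held 5 of those 8, for Dusp2, Dusp4, Dusp6, Dusp7 and Dusp16, and replicate 2 was the low one in each. Dusp1 and Dusp5 were at 1 RPKM or more in all 8 libraries.

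No gene for the kinases of the pathway passed between tissues. None of the 7 MAP kinase genes tested, the 6 MAP kinase kinases or the 12 Raf and MAP3 kinases passed for the average tissue effect, with medians of -0.10, 0.83 and 0.17. The p38 alpha gene Mapk14 had the highest mean of the MAP kinases, at 40.1 RPKM. Of 10 other dual specificity phosphatases tested, none passed for the average tissue effect. Dusp22 stood at 14.8 and 13.5 RPKM in knockout-label PP and under 0.1 in the other 6 libraries. It thus passed the filter on low values only through the group where it was high, which its adjusted p does not allow for. Under the knockout label it was called lower in LP (-3.85 ± 0.66, SE, limma adjusted p = 0.0407). That call was kept in 4 of 14 alternative settings and lost in each of the 6 that left out 1 library and could be fitted. Ptpn7, a tyrosine-specific phosphatase of ERK and p38, fell in LP. It stood at 127 to 181 RPKM in the 4 PP libraries and at 0.653, 20.5, 37.2 and 32.0 in LP, with an average tissue effect of -3.37 ± 0.82 (limma adjusted p = 0.0482), and 3 of 15 alternative settings kept that call.

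Among the Sprouty and Spred genes, which encode other feedback inhibitors of the ERK pathway, 1 of 4 tested passed in wild-type libraries. Spry2 rose from 29.8 and 43.6 RPKM in wild-type PP to 274 and 183 in wild-type LP (2.60 ± 0.46, SE, limma adjusted p = 0.0449), a call kept in 5 of 16 alternative settings. It stood at 47.2 and 50.3 RPKM in knockout-label PP and 64.2 and 54.4 in knockout-label LP. In LP it was thus lower under the knockout label without overlap (-1.91 ± 0.46, limma adjusted p = 0.406). The same order in LP was found for Dusp2, Dusp5 and Dusp6 and for 20.3% of all genes tested. Of 13 MAP kinase-activated kinases and nuclear targets tested, none passed for the average tissue effect. Immediate early genes, transcribed within minutes of such signals, had 7 of 17 genes tested passing as higher in LP and 1, Jun, as lower, with a median of 1.75. Over all genes tested, 2.3% passed as higher and 2.03% as lower, with a median of -0.10. Atf3 stood at 3.20 to 27.9 RPKM in PP and at 501 to 1083 in LP (6.03 ± 0.43, limma adjusted p = 5.73e-05), Nr4a1 by 4.82 ± 0.36 and Junb by 1.75 ± 0.14. Whether handling of the tissue contributed was not tested.

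By pattern over the 8 libraries, among the 7706 genes averaging 5 RPKM or more, the 3 genes most like Dusp5 were Cdkn1a, Ubald2 and Litaf (Pearson r of 0.99 for each on log2(RPKM + 1)). Cdkn1a, which encodes the cell cycle inhibitor p21, stood at 5.44 to 99.4 RPKM in PP and 1223 to 1505 in LP. Those most like Dusp1 were Irak2, Serp1 and Elf1 (0.96, 0.94 and 0.93), and those most like Dusp4 were Nfkb2, Rell1 and Nsd3 (0.98, 0.98 and 0.96). Dusp6 was most like Ctnnbl1, Eef2kmt and Fbxo11 (0.97, 0.96 and 0.96), all under 0.3 RPKM in wild-type PP replicate 2 and in both knockout-label LP libraries, as Dusp6 was. The 8 libraries share tissue and genotype groups, so these values describe likeness of pattern only.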

How the data were processed

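RNA was measured in 8 Smart-seq2 libraries of LTi cells. The authors deposited 1 table of log2(RPKM + 1), with 0.0001 written for 0. Per the submitters' processing notes, the counting tool was featureCounts (Subread) and the build mm10, while aligner, versions, annotation and strandedness are not stated in the sources used here. As a check of the log base, 70.3% of 37 low values were within 0.05 reads of a whole multiple of 1 read after undoing log2, against 30.9% of 68 after undoing a natural log. Depth was taken as the median over 1110 genes of the RPKM step of 1 read, using GENCODE M21 exon lengths (quartiles over genes 18.1 and 36.6 M). Smart-seq2 reads carry no molecular identifiers, so PCR copies count as reads. Of 27179 Entrez identifiers, 25275 matched RefSeq of GRCm38.p6.

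Groups came from the labels. The 10541 genes reaching 1 RPKM in 2 or more libraries were fitted as log2(RPKM + 1), pseudocount 1, with limma 3.58.1 in R 4.3.3 (eBayes with trend). A model of 4 group means (4 residual degrees of freedom) gave effects within a tissue or genotype and the interaction. An additive model (5 degrees of freedom) gave average effects, treating the 8 libraries as unrelated, although the labels do not exclude that PP and LP were taken from the same mice. Tests were two-sided, with a Benjamini-Hochberg threshold of 0.05 over all genes kept. A fold change on this scale understates the change of low genes. The members and gene lists were chosen with earlier results of these data known. The 8 members are always named. From other lists, up to 3 genes passing in a comparison are named, or up to 2 of highest level, and likeness is given for members with a mean of at least 20 RPKM. Other genes, such as Spry2 in LP and the genes most like Dusp2, were named after their values were seen. Model fits were checked on simulated data. Some genes of the lists are not reported here.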

Additional observations from a re-analysis of the deposited data

Results flagged for a closer look

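For 3 of the 8 genes, both knockout-label libraries lay on one side of both wild-type libraries in PP and on the other side in LP. These were Dusp2, Dusp5 and Dusp6, each higher under the knockout label in PP and lower in LP. Of all 10541 genes tested, 4.27% had this order and 6.34% had opposite orders in either direction. The interaction on the log2 scale was -4.36 ± 1.35 for Dusp2, -2.84 ± 1.35 for Dusp5 and -7.11 ± 2.37 for Dusp6 (SE). None passed over all genes, with limma adjusted p of 0.383, 0.635 and 0.424, where 0.0285% of genes did. For Dusp2 the LP values were about 4 to 8 reads in each library, so that its order there rests on a few reads.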

How the results depend on the processing

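The 30 fold changes recomputed kept their sign under all 462 alternative fits. They were the members' average tissue effects, other member effects with an unadjusted limma p under 0.05, and effects of genes chosen by name. Weaker effects in the other comparisons were thus mostly left out. Some fits cannot change a sign, such as the replicate block or leaving out a library of a group not compared. Of the 109 alternative counts of members past the threshold, 95 matched the count reported. For tissue in wild-type the count of 1 became 0 with no filter on low values and with only the 2 groups compared fitted (limma adjusted p for Dusp5 of 0.0774 and 0.0809), and it was 0 to 1 with each library left out. For the average tissue effect it became 0 with no filter (limma adjusted p = 0.0614), a setting that adds genes to the correction, and it stayed at 1 without each library. For tissue under the knockout label, where 0 had passed, a pseudocount of 0.1 gave 1 (Dusp10, 7.23, limma adjusted p = 0.0481) and a pseudocount of 5 also gave 1 (Dusp2, -2.90, limma adjusted p = 0.0484), and the count was 0 to 1 with each library left out, Dusp5 passing without either wild-type PP library. For genotype in PP it was 0 to 1 with each library left out. Genotype in LP, the interaction and the average genotype effect gave 0 in every alternative. With the replicate number as a block, the counts were 1 for tissue in wild-type and for the average tissue effect and 0 for the other 5 comparisons, as without it. The numbers were not taken to pair libraries, since the sources used here do not say that a number marks a shared mouse, litter or day. Same-numbered libraries of different groups had correlations of -0.0214 to 0.0103 in their deviations from the group means. Such values do not exclude shared mice, since replicates also differed much in which genes were detected. The median wild-type tissue difference of the 8 genes, 1.18, was -0.04 without wild-type PP replicate 2. Depth limits members near the floor, where a few reads set the order of libraries.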

Other observations

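Dusp8, which encodes a further phosphatase directed at JNK and p38 and was not among the 8 genes, was singled out after its values were seen. It stood at 4.88 and 6.46 RPKM in wild-type LP and at 4.14 and 8.23 in knockout-label LP, and at 0.0234 RPKM or less in all 4 PP libraries. Dusp8 passed the filter on low values only through the LP libraries, where it was high, and its adjusted p does not allow for that. Its average tissue effect was 2.74 ± 0.74 on the log2 scale (SE) and did not pass (limma adjusted p = 0.0684). It passed with a pseudocount of 0.1 (5.68, limma adjusted p = 0.0455), and over 15 alternatives the adjusted p ran from 0.0455 to 0.162.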
